A study of Canis lupus familiaris with 33 samples.

Results

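A group of 8 transcription factor genes that directs the differentiation of the urothelium, the epithelium lining the bladder, were followed in canine invasive urothelial carcinoma (iUC): PPARG, RXRA, FOXA1, GATA3, KLF5, GRHL3, TBX2 and TBX3. All 8 were found by gene symbol among the 25096 genes of the TMM-normalized table, 12202 of which carry a symbol. The table holds 29 iUC tumors and 4 normal bladder mucosa samples. Each tumor was a cystoscopic biopsy of a high grade, treatment-naive iUC, each from a different dog. The normal samples were mucosa dissected from the bladders of dogs euthanized for conditions unrelated to the bladder. No genotype or agent is given for either group, and dogs of any age, sex or breed entered the study. Total RNA depleted of ribosomal RNA was sequenced as paired reads of 150 bp. Every value below is a log2 normalized value from which the gene's own median over the 33 samples had been subtracted, so a value can be compared between samples for 1 gene, but not between genes.

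The terminally differentiated urothelium carries an apical membrane of uroplakins, and the genes that produce it answer to a small set of nuclear factors. PPARG is a ligand-activated nuclear receptor that binds DNA as a heterodimer with RXRA. FOXA1, a forkhead factor, and GATA3, a zinc finger factor, open and occupy enhancers of luminal genes. KLF5 and GRHL3 act in epithelial maturation and barrier formation, and TBX2 and TBX3 are T-box repressors of the same subfamily. High levels of several of these factors are the usual mark of luminal tumors in human bladder cancer.

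The labels call the normal samples urothelial cells, but markers of the bladder wall were high in them. All 4 smooth muscle markers tested were lower in tumors, with differences from -7.05 to -5.97, and their mean ran from 5.29 to 7.28 in the normals and from -1.19 to 4.07 in the tumors. All 7 epithelial markers tested were higher in tumors, by 1.09 to 2.37, with a mean between -2.69 and -1.41 in the normals and between -0.36 and 0.73 in the tumors. Normal D had the lowest epithelial and the highest smooth muscle mean. Genes at their lowest recorded value numbered 755 to 1019 per normal and 3699 to 8175 per tumor. In bulk tissue of this kind, fewer cells of a type and less RNA per cell cannot be told apart.

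The first comparison asked how the factors differed between iUC and normal mucosa. KLF5, TBX2, PPARG, FOXA1 and GRHL3 were higher in tumors, by 2.19-fold to 3.83-fold. GATA3 was 1.90-fold higher, under the 2-fold threshold, and for RXRA and TBX3 no difference was detected. Thus 5 of the 8 factors passed the test (limma, Benjamini-Hochberg adjusted p at most 0.05 over all 24471 genes tested, and at least 2-fold) as higher and 0 as lower. Of all genes tested, 10.7% passed as higher and 45.8% as lower. The median log2 difference of all genes was -0.84, and 0 of the 8 factors had a difference below 0. Among the 18418 genes above their lowest value in at least 17 samples the median was -0.01. There 2595 genes passed as higher and 5543 as lower, and the same 5 factors passed.

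PPARG stood at -1.36, -0.74, -0.80 and -1.98 in normals A to D. In tumors it ran from -2.33 through a median of 0.06 to 1.505. All but 2 of the tumors, 27 of 29, lay above every normal, and 1 tumor, Da6, lay below them all. The log2 difference was 1.27 (SE 0.36, 95% interval 0.55 to 2.00, limma adjusted p = 0.00198, exact permutation p = 0.00281).

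RXRA, its heterodimer partner, was at -0.11, -0.12, 0.17 and -0.64 in the normals. The tumors ran from -1.05 to 1.56, with a median near 0, on both sides of the normals. The difference was 0.15 (SE 0.25, limma adjusted p = 0.593), with a 95% interval from -0.36 to 0.66 that leaves out a change of 2-fold in either direction.

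FOXA1 was at -1.11, -0.94, -1.29 and -1.67 in the normals and ran from -2.07 through 0.16 to 1.10 in tumors. As with PPARG, 27 of 29 tumors lay above every normal and tumor Da6 lay below all 4. The difference was 1.27 (SE 0.33, limma adjusted p = 0.000877, exact permutation p = 0.0012). GATA3 was at -1.29, -0.75, -0.87 and -1.31 in the normals and between -1.57 and 1.14 in tumors, with 23 of 29 above every normal. Its difference of 0.92 (SE 0.32, limma adjusted p = 0.0111) corresponded to 1.90-fold and fell short of the 2-fold threshold.

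KLF5 separated the groups completely. The normals were at -1.90, -1.69, -1.84 and -2.31, while the lowest tumor, Za, was at -1.10, and the median and highest tumors were at 0.05 and 1.16. The difference of 1.94 (SE 0.25) was 3.83-fold (limma adjusted p = 2.36e-08), and its exact permutation p of 2.44e-05 is the smallest that 29 against 4 samples allow.

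GRHL3 was at -0.83, -0.54 and -0.42 in normals A to C and at -2.69 in normal D. Tumors ran from -0.93 through 0.03 to 1.11, and 23 of 29 lay above every normal. The difference was 1.13 (SE 0.32, limma adjusted p = 0.00205). Without normal D it was 0.61 (limma adjusted p = 0.0859) and the call was lost.

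Of the T-box pair, TBX2 passed the test and TBX3 did not. TBX2 was at -1.15, -1.09, -1.21 and -1.83 in the normals and between -1.40 and 1.52 in tumors, with 27 of 29 tumors above every normal and a difference of 1.37 (SE 0.35, limma adjusted p = 0.000726, exact permutation p = 0.00044). TBX3 was at -0.17, -0.39, -0.57 and 0.27 in the normals, inside a tumor range from -3.24 to 1.09. Its difference was 0.01 (SE 0.53, limma adjusted p = 0.992), with a 95% interval from -1.08 to 1.09, so a change of 2-fold in either direction was not excluded by the spread.

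**Figure D1:**
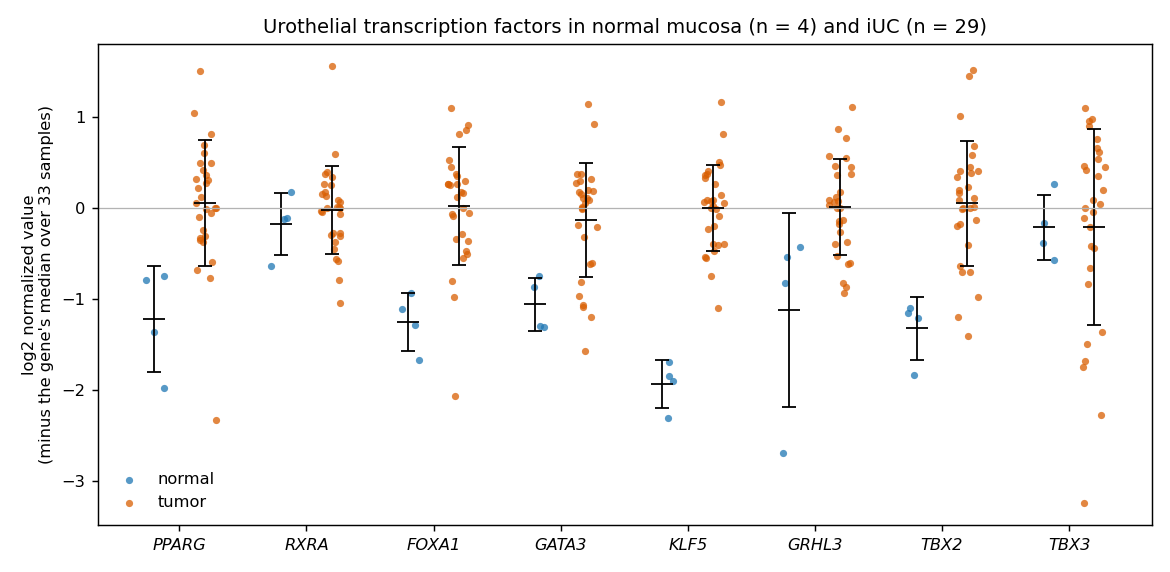
Log2 normalized value, minus the gene's median over 33 samples, for each factor in 4 normal (blue) and 29 tumor (orange) samples. Points are samples, and bars give the mean and SD. KLF5 is the factor without overlap between the groups, and TBX3 has the widest tumor range, from -3.24 to 1.09.

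The differences depended on what the values were set against. In the DESeq-normalized table KLF5 (1.64, limma adjusted p = 5.6e-07) and TBX2 (1.08, limma adjusted p = 0.00617) were the 2 factors that passed as higher, where 5.62% of all genes did and 49.1% passed as lower. PPARG and FOXA1 fell just below 2-fold there, at 0.98 and 0.97. RXRA and TBX3 were below 0 there, at -0.15 and -0.29, and did not pass (limma adjusted p = 0.616 and 0.641). When each sample was expressed relative to the mean of its 7 epithelial markers, 0 factors passed as higher. RXRA and TBX3 passed as lower, by -1.73 (SE 0.27, limma adjusted p = 6.04e-07) and -1.87 (SE 0.58, limma adjusted p = 0.0034). On this scale 84.5% of all genes passed as lower. KLF5 was then at 0.06 (95% interval -0.49 to 0.60), close to the epithelial markers, and PPARG, FOXA1, GATA3, GRHL3 and TBX2 were between -0.96 and -0.51 and did not reach 2-fold. RXRA relative to the epithelial markers was lower than every normal in 28 of 29 tumors, and TBX3 in 27.

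**Figure D2:**
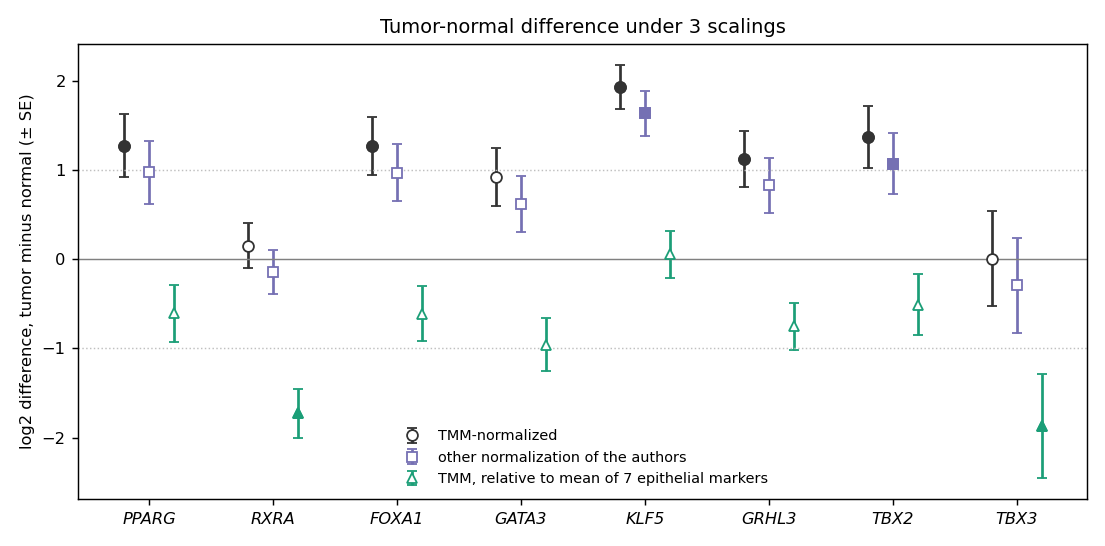
Log2 difference between tumors and normals, with its SE, for each factor in the TMM-normalized table (circles), the DESeq-normalized table (squares) and the TMM table relative to the mean of 7 epithelial markers (triangles). Filled symbols passed the test and dotted lines mark 2-fold. Both tables place 6 factors at 0.62 or more, and the epithelial scaling places only KLF5 above 0, at 0.06.

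The relatives of the 8 factors moved in both directions. Of 15 paralogs tested, 3 were higher, 5 were lower and 7 did not pass, where 10.7% of all genes were higher and 45.8% lower. The higher ones were the grainyhead factors GRHL1 (1.57, SE 0.26) and GRHL2 (1.43, SE 0.24) and the Krüppel-like factor KLF3 (1.36, SE 0.15). The T-box genes TBX4 (-4.45, SE 0.64), TBX5 (-4.49, SE 0.71) and TBX18 (-4.98, SE 1.05), which are known from mesenchyme, were among those that fell. GATA4 (-3.49, SE 1.12) and FOXA3 (-2.84, SE 0.93) fell as well, with FOXA3 at its lowest value in 16 tumors. TBX4 is the nearest analysed gene on one side of TBX2, and TBX5 on one side of TBX3, in the RefSeq annotation of the dog assembly UU_Cfam_GSD_1.0. The smooth muscle markers moved the same way as these T-box genes, and their part in the difference was not tested. The sister receptors of the heterodimer did not pass, with PPARA at 0.33 (SE 0.47), PPARD at 0.61 (SE 0.31) and RXRB at 0.36 (SE 0.23). FOXA2 was at 2.06 (SE 0.95, limma adjusted p = 0.0519).

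Of 11 other epithelial transcription factors, 5 were higher and 0 lower. For this list and those that follow, 10.7% of all genes were higher and 45.8% lower. The largest differences were those of OVOL1 (2.48, SE 0.38), TFAP2C (2.36, SE 0.29) and ELF3 (2.27, SE 0.28), the last an ETS factor of differentiated epithelium. Among 11 cofactors of PPARG, the Mediator subunit MED1 (1.25, SE 0.22), the corepressor NCOR1 (1.17, SE 0.21) and the coactivator PPARGC1A (1.39, SE 0.44) rose, and CITED2 (-1.82, SE 0.42) fell. Of 14 known PPARG target genes, 7 were higher and 2 lower. Those that rose included FABP3, a fatty acid carrier (1.95, SE 0.58), and CPT1A, which admits fatty acids to mitochondria (1.85, SE 0.34), and those that fell included the lipid droplet gene CIDEC (-2.64, SE 0.60), which is also an adipocyte marker. Of 4 uroplakins, UPK3A (1.85, SE 0.36) and UPK3B (1.16, SE 0.32) rose, while UPK1A (0.03, SE 0.54) and UPK2 (0.04, SE 0.44) showed no difference beyond their error. These counts fell with the DESeq normalization to 3 higher PPARG targets, 1 higher cofactor and 1 higher uroplakin, and stayed at 5 for the epithelial factors. There 5.62% of all genes were higher. Without normal D, 5 PPARG targets and 1 uroplakin passed as higher, where 2222 of all 24471 genes did, and the lowest uroplakin difference was -0.58. UPK2 was at 0.38, 0.35 and 0.36 in normals A to C and at -2.14 in normal D. UPK1A was at 0.02, -0.04 and 0.36 in normals A to C and at -1.26 in normal D. Relative to the epithelial markers 0 genes of these 4 lists and of the paralogs passed as higher, and 11 of 15 paralogs, 5 of 11 epithelial factors, 8 of 11 cofactors, 6 of 14 PPARG targets and 2 of 4 uroplakins passed as lower, where 84.5% of all genes did. The 2 uroplakins were UPK1A (-1.85, SE 0.52) and UPK2 (-1.84, SE 0.39).

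Among the 29 tumors the factors differed in how much they varied. TBX3 varied most, with an SD of 1.07, larger than that of 78.3% of all genes tested. It was lowest in tumors 9 (-3.24) and 10 (-2.27) and highest in Mi (1.09). KLF5 and RXRA varied least, with SDs of 0.47 and 0.48, near the 33.6th and 34.3rd percentile of all genes. The other 5 factors had SDs between 0.53 and 0.69. RXRA owed much of its range to tumor 20 at 1.56, since the next tumor, 15, was at 0.59.

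A pair of tumors stood at the ends of several factors. Tumor Da6 was lowest in PPARG (-2.33), FOXA1 (-2.07) and RXRA (-1.05) and among the 5 lowest tumors in 7 of the 8 factors, KLF5 (-0.09) being the exception. In the same tumor the mean of the basal and squamous genes was 3.85, that of the leukocyte markers 3.02, and that of the uroplakins -2.03. Tumor Ab was highest in PPARG (1.505), FOXA1 (1.10), GATA3 (1.14), KLF5 (1.16) and GRHL3 (1.11), and its TBX2 (1.45) was second to that of tumor 15 (1.52). TBX3 of tumor Ab was -0.05, in the middle of the tumors. The basal and squamous mean of tumor Ab was 0.97, also above the tumor median of 0.14. Its leukocyte mean was -0.81 and its uroplakin mean 0.43. The epithelial means of Da6 and Ab were -0.25 and 0.72.

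**Figure D3:**
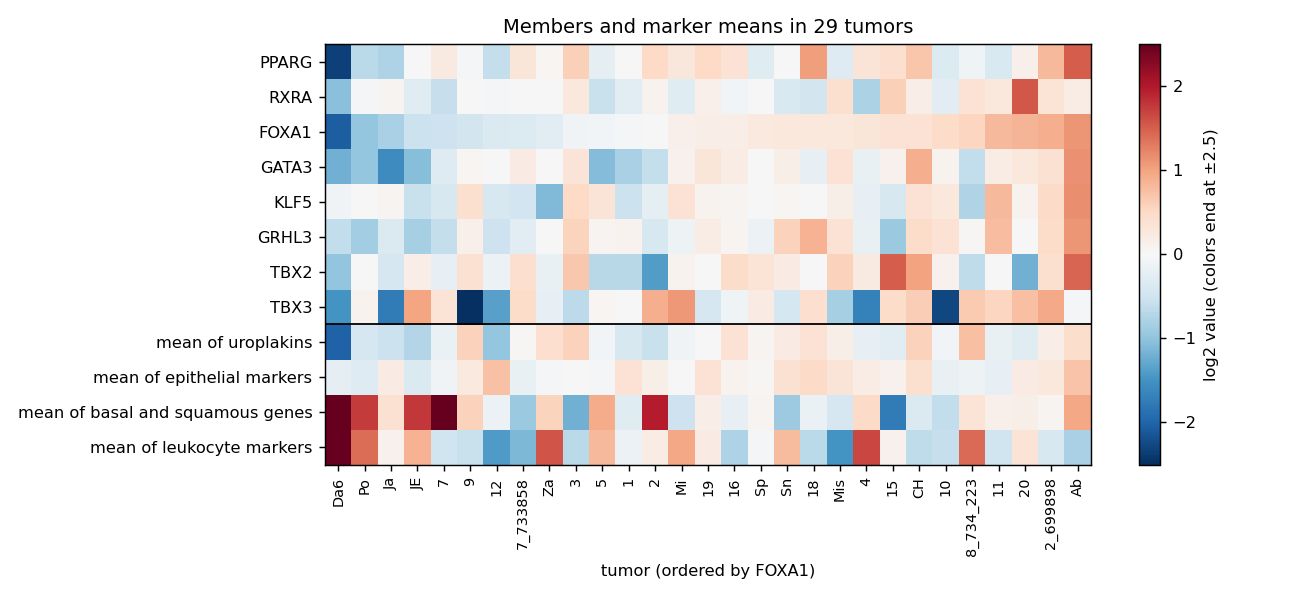
Log2 value of each factor (upper rows) and mean of 4 marker lists (lower rows) in the 29 tumors, ordered by FOXA1 from left to right. Colors run from blue (-2.5 or lower) to red (2.5 or higher). Tumor Da6 at the left is low in most factors and at 3.85 in the basal and squamous mean, tumor Ab at the right is high in most factors, and TBX3 follows its own order.

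The second question was whether the factors varied together among tumors. Every gene was fitted on the level of each factor in turn, and a pair was called when each gene of the pair had a limma adjusted p of at most 0.05, over all 22029 genes, in the fit of the other. The 28 pairs had a median Pearson r of 0.37, from -0.11 to 0.71, and 25 were positive. Of these, 5 pairs were called, all positive, and FOXA1 and GATA3 each belonged to 3 of them.

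FOXA1 and PPARG had the highest r, 0.71 (limma adjusted p = 0.0111 and 0.0146 in the fits of PPARG and FOXA1, permutation p = 8e-05), but a Spearman rho of only 0.42 (permutation p = 0.0252). Tumors Ab and Da6 are also the 2 farthest from the median of PPARG. Without both the r was 0.39 and the call was lost, so the relation at its full size rests on those 2 tumors. In the 18 tumors whose titles start with a number the r was 0.13, and in the 11 whose titles start with a letter, Ab and Da6 among them, it was 0.91. What the titles stand for is not stated in the labels, and the difference between the title classes was not tested.

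FOXA1 and GATA3 had an r of 0.68 (limma adjusted p = 0.0254 and 0.0246, permutation p = 5e-05), a rho of 0.63 (permutation p = 0.00034) and an r of 0.58 without Ab and Da6. GATA3 and TBX2 had an r of 0.64 (limma adjusted p = 0.0394 and 0.0435, permutation p = 0.00029) and a rho of 0.70 (permutation p = 5e-05). Their r was 0.52 without Ab and Da6, where the call was lost. It was 0.68 when tumors 15 and 2, farthest from the TBX2 median, were left out instead. FOXA1 and GRHL3 had an r of 0.64 (limma adjusted p = 0.0384 and 0.0201, permutation p = 0.00016), a rho of 0.59 (permutation p = 0.00088) and an r of 0.59 without Ab and Da6. PPARG and GATA3 had an r of 0.62 (limma adjusted p = 0.0387 and 0.0478, permutation p = 0.00022), a rho of 0.54 (permutation p = 0.00324) and an r of 0.47 without Ab and Da6. In the number-titled and letter-titled tumors the r was 0.28 and 0.86 for FOXA1 and GATA3, 0.57 and 0.84 for GATA3 and TBX2, 0.41 and 0.82 for FOXA1 and GRHL3, and 0.24 and 0.77 for PPARG and GATA3. Over all 28 pairs the median r was 0.17 in the number-titled and 0.61 in the letter-titled tumors, and 26 pairs had the higher r in the letter-titled ones.

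Read against all genes, 2 of the 7 other factors were called positively in the fit of PPARG, where 0.472% of all genes were. In the fits of FOXA1 and GATA3 it was 3 of 7, against 0.281% and 0.25% of all genes. In the fit of GRHL3 it was 3 of 7 against 0.885%, since GRHL3 also reached KLF5 (r = 0.615, limma adjusted p = 0.0307) and GATA3 (r = 0.60, limma adjusted p = 0.033) there, although neither pair was called in the fit of the partner. In the fit of TBX2 it was 1 of 7 against 0.327%. In the fit of RXRA 0 of 7 factors and 0.00908% of all genes were called positively. Negative calls, none of them a factor, made up 0.613%, 0.331% and 0.00454% of all genes in the fits of FOXA1, GATA3 and RXRA. In the fits of KLF5 and TBX3 limma called 0 genes in either direction, with 642 and 816 positive and 1090 and 1119 negative genes at an unadjusted p below 0.05, and a fit on ranks also called 0. Single tumors set the number of genes called, positive and negative together. It fell from 287 to 9 in the fit of PPARG, from 197 to 3 in that of FOXA1 and from 128 to 38 in that of GATA3 without Da6, from 773 to 174 in that of GRHL3 without tumor 18, and from 149 to 60 in that of TBX2 without tumor CH.

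PPARG and RXRA, which act as a dimer, had an r of 0.31 (permutation p = 0.103), and 0.01 without Ab and Da6. TBX3 had the lowest median r with the other factors, 0.11, with values from -0.11 with KLF5 to 0.41 with PPARG. TBX2 and TBX3 had an r of -0.04 (permutation p = 0.845).

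The calls depended on single tumors and on the model. Leaving out tumor Da6 alone left 0 of the 5 pairs called, and with a left-out tumor other than Da6 the count was 2 to 5. Da6 was the only single tumor whose removal ended the call of FOXA1 and PPARG, to an r of 0.51. The other 4 pairs kept an r of 0.65 for FOXA1 and GATA3, 0.65 for FOXA1 and GRHL3, 0.60 for GATA3 and TBX2 and 0.575 for PPARG and GATA3 without it. With ranks in place of values 0 pairs were called, while 15 pairs had an unadjusted p below 0.05 in both fits, against 14 with the values. With the epithelial mean, or the number of genes at their lowest value, as a covariate, FOXA1 and PPARG alone stayed called.

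**Figure D4:**
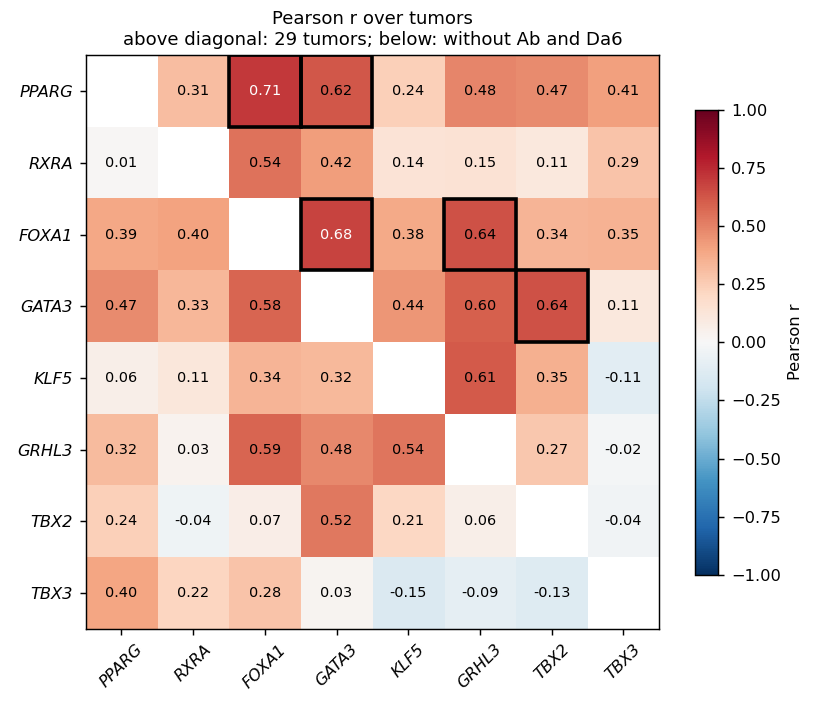
Pearson r between the 8 factors over 29 tumors (above the diagonal) and over 27 tumors without Ab and Da6 (below). Boxes mark the 5 called pairs. All 28 values are lower without the 2 tumors, and the median falls from 0.37 to 0.26.

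Genes of urothelial function were then set against each factor. GRHL3 had the highest r of any called listed gene. Its r with UPK2, a uroplakin of the apical plaque, was 0.86 (limma adjusted p = 5.8e-05, permutation p = 1e-05, the smallest the 100000 permutations can give, rho = 0.83). Tumors high in GRHL3 were high in UPK2, from tumor Ab at 1.11 and 0.97 to tumor Po at -0.87 and -1.56. The r stayed at 0.84 without Ab and Da6, at 0.85 in the number-titled and 0.90 in the letter-titled tumors, and at 0.84 with the epithelial mean as a covariate. The call held with each of the 29 tumors left out in turn. It was lost, in these alternatives, only within the title classes, which hold 18 and 11 tumors.

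UPK2 was also called with FOXA1 (r = 0.74, limma adjusted p = 0.0138) and GATA3 (r = 0.64, limma adjusted p = 0.0395), and UPK1A with PPARG (r = 0.73, limma adjusted p = 0.00554, rho = 0.54). For UPK2 the r in number-titled and letter-titled tumors was 0.43 and 0.87 with FOXA1, and 0.11 and 0.92 with GATA3. When each tumor was left out in turn, the UPK2 call held 28 times with FOXA1 and 19 times with GATA3. Both calls were lost with ranks and without Ab and Da6. The call of UPK2 with GATA3 was also lost with the epithelial mean as a covariate. Of the 4 uroplakins, GRHL3 had 2 called, the other being UPK3A (r = 0.55, limma adjusted p = 0.0488), and PPARG, FOXA1 and GATA3 had 1 each. The call of GRHL3 and UPK3A held only 8 times when each tumor was left out in turn. It held in 4 of 12 alternative settings, ranks among them. It was lost, among others, with the DESeq normalization, without the mean-variance trend and without Ab and Da6. UPK1A was at -4.65 in tumor Da6, and its r with PPARG was 0.48 without Ab and Da6. All 4 uroplakins had a positive r with each of PPARG, RXRA, FOXA1, GATA3, GRHL3 and TBX2, and their median r was 0.45 with PPARG, 0.40 with FOXA1 and 0.42 with GRHL3, beside a median near -0.05 for all genes with PPARG or GRHL3 and -0.04 with FOXA1.

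**Figure D5:**
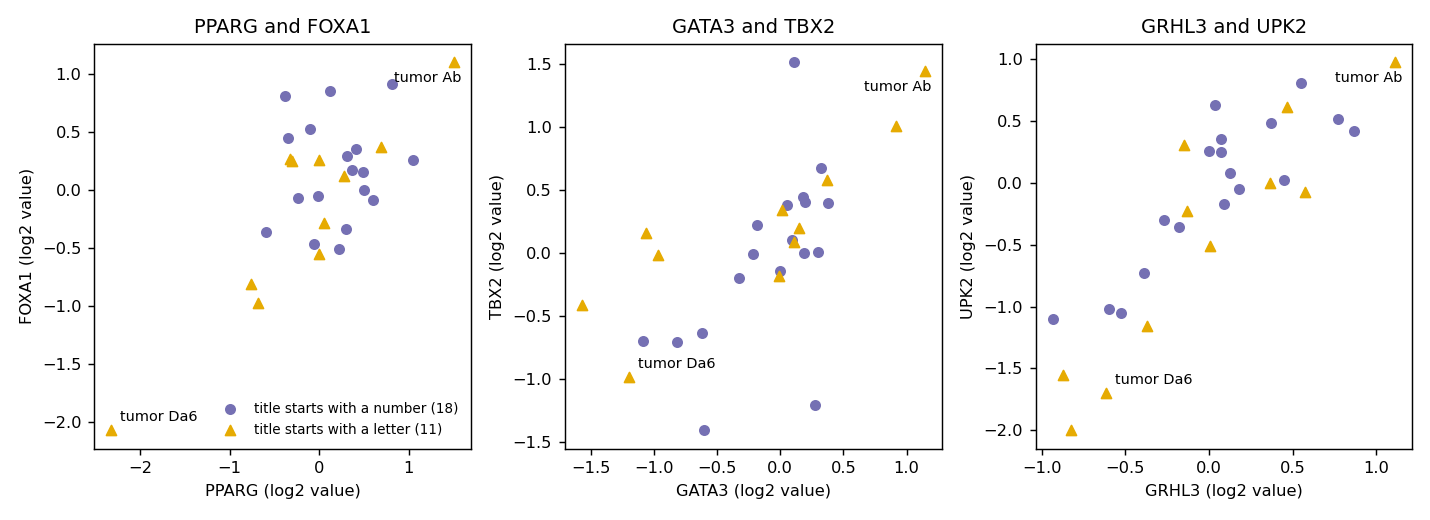
Log2 values of PPARG and FOXA1, GATA3 and TBX2, and GRHL3 and UPK2 in each of 29 tumors, with tumors whose titles start with a number as circles and with a letter as triangles. In the first panel tumors Ab and Da6 lie at the 2 ends, and in the third the tumors lie along 1 line with an r of 0.86.

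Of the 14 PPARG targets tested, the median r with PPARG was -0.04, beside -0.05 for all genes. SULT1A1, a phenol sulfotransferase, was called with FOXA1 (r = 0.72, limma adjusted p = 0.0187). The superficial urothelial genes FBP1 and VSIG2 were called with GRHL3 (r = 0.71, limma adjusted p = 0.00723) and PPARG (r = 0.68, limma adjusted p = 0.0194).

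Other epithelial regulators were also called. OVOL2, a zinc finger factor that maintains the epithelial state, was called with GRHL3 (r = 0.65, limma adjusted p = 0.0188) and PPARG (r = 0.62, limma adjusted p = 0.0379). GATA2 was called with PPARG (r = 0.60, limma adjusted p = 0.046) with an r of 0.29 without Ab and Da6, and PPARD with TBX2 (r = 0.63, limma adjusted p = 0.0435).

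Negative relations included stromal markers and individual basal and squamous genes. TBX2 was opposite to SCEL, which encodes sciellin of the cornified envelope (r = -0.68, rho = -0.69, limma adjusted p = 0.0191), and PPARG to PI3, the antiprotease elafin (r = -0.58, limma adjusted p = 0.046). Of 10 basal and squamous genes tested, SCEL alone was called with TBX2 and PI3 alone with PPARG. EGFR and TGM1 had a positive r with both factors, and the other genes of that list a negative one. Negative calls made up 0.35% and 0.831% of all genes in these fits. The call of TBX2 and SCEL held with each of the 29 tumors left out in turn, and that of PPARG and PI3 with 15 of the 29. GRHL3 was opposite to 3 of 4 endothelial markers, among them the VEGF receptor KDR (r = -0.68, limma adjusted p = 0.0093) and PECAM1 (r = -0.61, limma adjusted p = 0.0234), and to 1 of 6 fibroblast markers, PDGFRB (r = -0.67, limma adjusted p = 0.0136). Negative calls with GRHL3 made up 2.62% of all genes, 578 in number, and positive calls 195. Without tumor 18 they numbered 130 and 44, and with the first principal component as a covariate 4 and 2. GRHL3 was also opposite to the T cell marker CD5 (r = -0.54, limma adjusted p = 0.0464), to GDF15, a growth factor among the PPARG targets (r = -0.55, limma adjusted p = 0.043), and to the paralog TBX5 (r = -0.63, limma adjusted p = 0.0186). GATA3 was opposite to the B cell marker CD79A (r = -0.61, limma adjusted p = 0.0476). CD5 alone among 6 T cell markers was called with GRHL3, and CD79A alone among 8 leukocyte markers with GATA3. With each of the 29 tumors left out in turn, the call of GRHL3 held 12 times for CD5, 17 for GDF15 and 27 for TBX5. That of GATA3 and CD79A held 11 times. The epithelial mean had an r of 0.46 with GRHL3 over the tumors, the endothelial mean -0.64 and the fibroblast mean -0.40, and the part of cell content in these relations was not tested. With the epithelial mean as a covariate the r of GRHL3 and KDR was -0.65 and the call remained. The r of PDGFRB was then -0.60, that of PECAM1 -0.52 and that of CDH5 -0.46, from -0.56 without the covariate, and these 3 lost the call. With the first principal component as a covariate KDR lost it too.

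The genes whose tumor pattern was most like that of each factor are given as a description without a test, over the 29 tumors. GRHL3 was most like UPK2 (0.86), SMTNL2 (0.79) and B3GALT6 (0.78), and KLF5 like EVPL, which encodes envoplakin (0.72), NELFCD (0.68) and C1orf116 (0.68). GATA3 was most like RCOR1, a subunit of the CoREST corepressor complex (0.79), FCHO2 (0.78) and VAPB (0.76). TBX2 was most like TMEM94 (0.79), GPAT4 (0.75) and FAM222B (0.74), and TBX3 like GLT8D2 (0.68), TCTN2 (0.66) and MLF1 (0.65). For RXRA they included TOB2 (0.76) and LAMB1 (0.74), where LAMB1 had a rho of 0.40. For FOXA1 they were PXYLP1 (0.76), UPK2 (0.74) and RECQL5 (0.74), and for PPARG SLC16A5 (0.75), NBR1 (0.75) and C17orf75 (0.74). Without Ab and Da6 the r of PPARG and SLC16A5 was 0.46.

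The genes next to the factors in the RefSeq annotation named above were also examined as a description. MIPOL1, beside FOXA1, had an r of 0.71 with it (rho = 0.64), above 99.96% of all genes, and 0.63 without Ab and Da6. BCAS3, beside TBX2, had an r of 0.53 with it. CELF2, beside GATA3, had an r of -0.44. TBX4 and TBX5, next to TBX2 and TBX3, had an r of 0.07 and near 0 with them. The neighbours thus ranged from a gene among those most like its factor to genes with an r near 0 or below it, and strand-specific counting is not stated in the sources used here.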

How the data were processed

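RNA-seq of 4 normal bladder mucosa samples and 29 iUC was used, with groups taken from the labels. The authors aligned reads to CanFam 3.1 with COBWeb in Strand NGS 3.1 and normalized separately with TMM and DESeq. The deposited values are log2 normalized values minus each gene's median over the 33 samples (median 0 in every gene, checked), with a lowest value shared by samples. Depth per sample is unknown from these values. Because they are not counts, limma 3.58.1 (R 4.3.3, mean-variance trend) was used on the log2 scale. Genes above the lowest value in at least 4 samples (tumors for co-variation) were tested. Tumor and normal were compared over all genes, with adjusted p at most 0.05 and 2-fold. Each gene was fitted on each factor over 29 tumors. Correlations used two-sided permutation tests (100000 resamples), and single differences the exact two-sided permutation test. Scripts were tested on simulated data. The factors and gene lists were chosen with earlier results of these data known. Named genes are the 8 factors, at most 4 called or defining genes of a list, those with the largest difference or r, and the 3 most alike genes per factor. Listed genes without a row, such as KRT5, were not analysed here, and some genes that meet the naming rule are not reported here. The limma p-values of tumor against normal rest on a single variance per gene, shared by the 29 tumors and 4 normals. The SD of GRHL3 was larger in the normals (1.06) than in the tumors (0.53), and that of each other factor was smaller.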

Additional observations from a re-analysis of the deposited data

Results flagged for a closer look

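In 4 of 16 quantities examined over the normals, 1 sample stood apart from the rest by Dixon's criterion. Normal D did so in TBX2 (-1.83), in the epithelial marker mean (-2.69) and in the uroplakin mean (-2.16), and normal A in the leukocyte marker mean (-0.20). By chance alone the criterion marks about 1 in 20. Without normal D the difference of TBX2 had a limma adjusted p of 0.00856 and stayed past both thresholds.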

How the results depend on the processing

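Of the tumor-normal comparisons, 5 factors passed in the TMM table, 2 in the DESeq-normalized table and 2, both lower, relative to the epithelial markers. The same 2 passed relative to those markers in the DESeq table and without normal D, both chosen after seeing the data. Without normal A, B, C or D in turn 4 to 6 factors passed, all as higher. Of the 24471 genes tested, 2561, 2650, 2695 and 2222 then passed as higher, and 10677, 10937, 11067 and 10596 as lower. In the TMM table with all normals, every factor had a difference above 0. Relative to the epithelial markers, in either table, the difference was below 0 for PPARG (-0.61), RXRA (-1.73), FOXA1 (-0.61), GATA3 (-0.96), GRHL3 (-0.75), TBX2 (-0.51) and TBX3 (-1.87). Without normal D these were PPARG -0.55, RXRA -1.57, FOXA1 -0.44, GATA3 -0.73, GRHL3 -0.96, TBX2 -0.37 and TBX3 -1.40. Centred on the median of all genes tested, 7248 genes passed as higher and 9177 as lower, against 2615 and 11206, the median of all genes was -0.16, and 6 factors passed. Of the 28 pairs, 5 were called. The count was 0 with ranks, with the first principal component as a covariate, within number-titled or letter-titled tumors and without Ab and Da6, where 15, 9, 3, 14 and 9 pairs had an unadjusted p below 0.05 in both limma fits. It was 1 with the epithelial or the lowest-value covariate, and 0 to 5 with each tumor left out in turn. Fewer tumors entered the title classes, and for the others the cause was not tested. Listed genes called with a factor numbered 26, and 11, 10 and 4 with the epithelial, the lowest-value and the principal component covariate, 12 with ranks, 15 without Ab and Da6, and 1 and 0 within number-titled and letter-titled tumors. With the principal component 3 of the 26 kept their call (UPK2 with GRHL3, UPK1A with PPARG and SCEL with TBX2), and with ranks 11 did, all with GRHL3. Among the tumors, 7 and 7_733858 were the most alike (r = 0.57 over genes with a median above their lowest value), and 2 and 3 pairs were called without one or the other. No paired analysis was possible because the normals came from dogs euthanized for conditions unrelated to the bladder, and the tumors from dogs with iUC. The 4 normals limit the precision, and promoter motifs were not examined here.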
